A study of Rattus norvegicus with 22 samples.

Results

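The genes described here are those whose level in rat prefrontal cortex was higher after cocaine than in controls when no cannabinoid had been given. They were chosen by value from a table of FPKM, which are read counts divided by gene length and by library size. An Ensembl ID was taken when its mean over the 3 cocaine libraries was 2 or more, this mean was at least 1.6 times the mean over the 3 control libraries, and the lowest cocaine value lay above the highest control value. The rule took 213 of 29663 genes in the table, of which 26689 have Ensembl IDs; a further 8 genes of the table's other ID series met the same values and were left out. The table lists IDs without gene names, and 0 of the 213 IDs matched the reference at hand. These genes are therefore described by counts, ranges and 4 IDs, and their functions, sequences and open chromatin were not analysed here.

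The tissue came from male Sprague-Dawley rats, and RNA was sequenced in 12 prefrontal cortex libraries: 3 of control rats, 3 of rats given WIN, 3 of rats given cocaine and 3 of rats given both (WIN+cocaine). The series title places cannabinoid exposure in adolescence and speaks of the first response to cocaine. The labels name no dose, age or interval, nor what the controls received, nor whether a library holds tissue of 1 animal or of several. Because nothing says that the replicates are separate animals, the p-values measure only the spread between these libraries, which may be technical. Whether the tissue shows markers of cortical neurons was not analysed here for want of gene names. In bulk tissue, fewer cells of a type and less RNA per cell cannot be told apart.

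Cocaine blocks the transporters that take dopamine, noradrenaline and serotonin back into nerve endings, and so raises these transmitters outside the cell. WIN is a synthetic agonist of cannabinoid receptors; the main such receptor in cortex sits on nerve endings and reduces transmitter release when active. The prefrontal cortex, which serves planning and the control of behaviour, is still maturing in adolescence. The comparison bears on whether genes that are high after cocaine are also high after cocaine in rats that had also received the cannabinoid.

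The libraries held 20852442 to 27677077 reads assigned to genes, as recovered from the values. The replicates of a group differed by far more than sampling noise. In a chi-square test of their reads, the statistic per degree of freedom ran from 9.14 to 9.98 in control, from 16.4 to 28.9 in cocaine and from 17.2 to 21.6 in WIN+cocaine. In WIN, replicates 1 and 2 stood at 11.2 from each other and at 31.3 and 32.5 from replicate 3, which thus stood apart from the other WIN libraries. The comparisons with WIN are therefore also given without that library, and the main ones without another WIN library where that moves them. The splits of the genes and the correlations were repeated only without WIN replicate 3.

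The 213 genes spanned a wide range of levels. Their mean FPKM over the 12 libraries lay between 1.05 and 2034.8. The median was 5.31, against 9.76 for the 15326 genes tested. Of the 213 genes, 99 had a mean under 5 and 19 a mean of 50 or more. Their implied length had a median of 1283 bp, beside 1922 bp for all genes tested. The rule acts on FPKM, which divides by length, so the choice is not independent of length. The median gene of the set had 199 reads in an average library, beside 488 for all genes tested. In the set 67 genes had fewer than 100, the lowest 2.17. All 213 passed the filter of the test, which asked for 3 libraries at an FPKM of at least 1, and 209 would have passed it without the cocaine libraries; 183 had an FPKM of 1 or more in all 12 libraries.

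In the cocaine and control libraries, which chose the genes, the values are a description. The ratio of mean cocaine to mean control FPKM had a median of 1.79 and reached 11.6. It was 2 or more in 62 genes, 3 or more in 12 and 5 or more in 4. By the rule, the cocaine values lay above all control values in 213 of 213 genes, beside 18.5% of all genes tested, and the cocaine mean was higher in all of them, beside 47.1% of all; nothing is read from these counts. The label of the set refers to values: limma, a linear model with a shared estimate of the spread, called 0 of the 15326 genes (0%) at an adjusted p of 0.05 between cocaine and control.

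The thresholds passed through a dense region. The 2 genes just inside the fold limit had ratios of 1.602 and 1.603, and the 2 just outside had 1.599 and 1.598. The 2 genes just above the limit on level had mean cocaine values of 2.020 and 2.024, and the 2 just below had 1.999 and 1.998. The lowest cocaine value was 1.0009 and 1.0026 times the highest control value in the 2 genes nearest to overlap, and 0.997 and 0.996 times it in the nearest 2 left out. Another 191 IDs met the limits on level and fold but had overlapping cocaine and control values. At 1.5-fold the rule took 357 genes and at 2-fold 62.

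A single cocaine library often led. Cocaine replicate 1 was the highest of the 3 cocaine libraries in 127 of the 213 genes (59.6%), beside 36.7% of all genes tested. In 48 of the 213 its value was at least 1.5 times the second highest. Replicate 2 led by that margin in 12 genes and replicate 3 in 8, which left 145 genes with no such lead. The share of all genes with such a lead was not analysed here, and these libraries chose the genes. The rule applied without cocaine replicate 1 took 171 genes, of which 125 were among the 213. Without cocaine replicate 2 it took 287, with 184 shared, and without cocaine replicate 3 it took 436, with 202 shared.

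The WIN and WIN+cocaine libraries were not used in the choice. In each of the 3 WIN+cocaine libraries the median of the genes lay between those of the control and the cocaine libraries. Their median log2(FPKM + 1) above the control mean was 0.35 in replicate 1, 0.23 in replicate 2 and 0.26 in replicate 3. In the cocaine libraries it was 0.90, 0.67 and 0.52; in the controls it was 0.03, -0.08 and 0.08. The WIN libraries were unlike each other: replicate 1 stood at -0.08 and replicate 2 at 0.11, whereas replicate 3 stood at 0.39, above each WIN+cocaine library. Over all genes tested the median lay between -0.03 and 0.02 in every library.

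**Figure D1:**
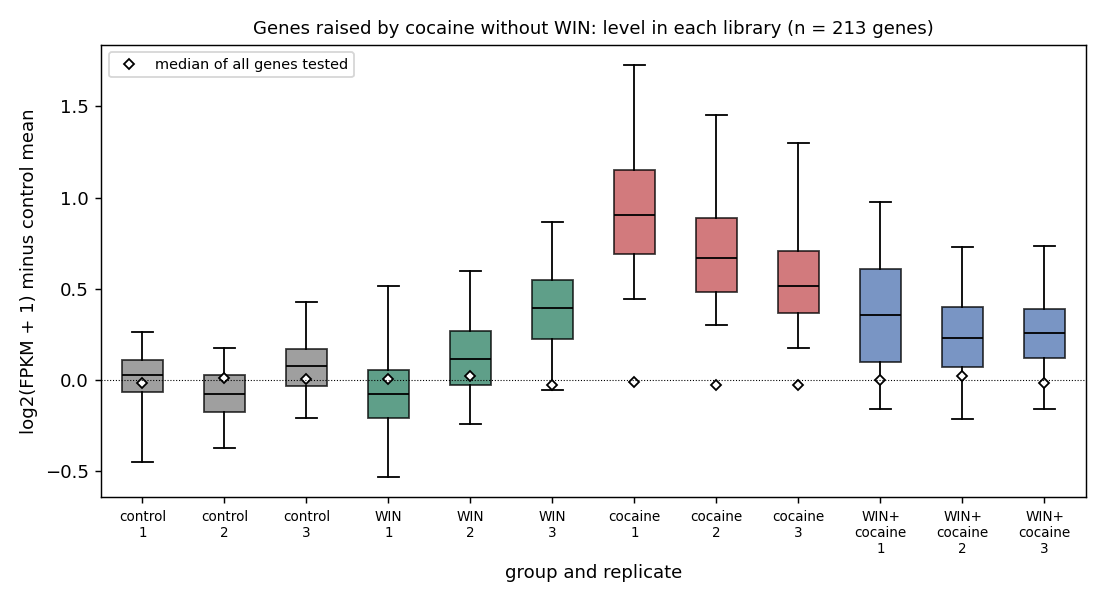
Box plots of the 213 genes in each of the 12 libraries, with log2(FPKM + 1) minus the control mean on the vertical axis and group and replicate on the horizontal axis; boxes show the quartiles, lines the medians, whiskers the 5th and 95th percentiles, and diamonds the median of all genes tested. The medians of the 3 WIN+cocaine libraries (0.23 to 0.35) lie below those of the cocaine libraries (0.52 to 0.90), and WIN replicate 3 (0.39) lies apart from WIN replicates 1 and 2 (-0.08 and 0.11).

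As group means, WIN+cocaine lay between the control and cocaine means in 192 of the 213 genes, at or below control in 16 and at or above cocaine in 5. It was nearer to cocaine than to control in 68 genes, on the log2(FPKM + 1) scale, and the median gene held 39.6% of the distance from control to cocaine. The WIN mean lay between in 187 genes, at or below control in 23 and at or above cocaine in 3. It was nearer to cocaine in 19 genes, and the median gene held 21.2% of the distance; by library this was -10.8%, 14.7% and 55.6% for WIN replicates 1, 2 and 3. The full order of control, WIN, WIN+cocaine and cocaine, from lowest to highest, held in 130 genes. Both counts rested on WIN replicate 3: without it the WIN mean lay between in 110 genes and at or below control in 101, and the full order held in 70. Without WIN replicate 1 the full order held in 97, and the WIN mean was nearer to cocaine in 54. Genes chosen as low in 3 libraries and high in 3 others tend to take middle values in further libraries even when the groups do not differ, so part of these middle positions follows from the choice.

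The same holds for every comparison that reuses the control or cocaine libraries. WIN+cocaine was lower than cocaine in value in 208 of the 213 genes and higher in 5, beside 54.5% higher among all genes tested, and the median log2 difference was -0.41 (0.02 for all). The 3 WIN+cocaine values lay below all cocaine values in 99 genes (46.5%), beside 6.7% of all genes tested, and above them in 0, beside 11.3%. Against control, WIN+cocaine was higher in 197 genes (92.5%), beside 49.5% of all genes tested, with a median of 0.28 (-0.0022 for all). Its values lay above all control values in 79 genes (37.1%), beside 11% of all, and below them in 1, beside 8.58%. WIN was higher than control in 184 genes (86.4%), beside 49.4% of all, with a median of 0.14 (-0.0018 for all). It lay above control without overlap in 14 genes (6.57%), beside 3.18% of all, and below in 1, beside 2.75%. Without WIN replicate 3, WIN was higher than control in 112 genes (52.6%) and lower in 101, with a median of 0.02; all genes tested then had 54.2% higher and a median of 0.01, so the share of these genes was no higher than that of all. Its values then lay above all control values in 19 genes (8.92%), beside 13.3% of all, and below them in 12, beside 9.12%. Without WIN replicate 1 they lay above all control values in 76 genes (35.7%), beside 9.56% of all. These comparisons share libraries with the choice of the genes, and no test is given for them.

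As a difference of values, WIN+cocaine against WIN shares no library with the choice. It gives the difference with cocaine in rats that had received WIN. Its p-values do use the control and cocaine libraries, through the shared estimate of the spread. Of the 213 genes, 159 (74.6%) were higher in WIN+cocaine in value and 54 were lower, beside 51.3% higher among all genes tested. Their median log2 difference was 0.15, while that of all genes tested was 0.0038; between cocaine and control, where they were chosen, these genes had 0.70. The upper quartile was 0.28, and the extremes were -0.90 and 0.93. The median ratio of mean FPKM was 1.12 in this comparison and 1.79 between cocaine and control. The choice favours high values between cocaine and control, so the lower values here do not by themselves show a weaker response. Ratios of 1.6 or more, the limit of the rule, were reached by 9 of the 213 genes (4.23%), beside 1.17% of all genes tested, and in the other direction by 5 (2.35%), beside 1.16% of all. For 1 gene the ratio was that high without overlap of the groups, beside 0.346% of all. With WIN replicate 3 left out, ratios of 1.6 or more were reached by 25 genes (11.7%), beside 1.79% of all, and in the other direction by 4 (1.88%), beside 1.51%. Leaving out WIN replicate 1 instead gave 8 genes (3.76%), beside 1.29%, and 6 (2.82%) in the other direction, beside 1.38%.

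No single gene passed the test. In limma on log2(FPKM + 1), with 4 group means over the 12 libraries and Benjamini-Hochberg adjustment over 15326 genes, 0 of the 213 genes passed an adjusted p of 0.05 between WIN+cocaine and WIN, beside 0% of all genes tested; limma voom on the recovered reads also called 0 of the 213. At an unadjusted p under 0.05, 12 of the 213 genes (5.63%) were higher, beside 2.56% of all genes tested. At that p 1 (0.469%) was lower, beside 1.2% of all, and voom gave 15 higher. In limma fitted only to the WIN and WIN+cocaine libraries, 14 (6.57%) were higher, beside 1.62% of all, and 2 (0.939%) lower, beside 1.34%. The 3 WIN+cocaine values lay above all 3 WIN values in 12 genes (5.63%), beside 4.52% of all genes tested, a share near the background. They lay below all WIN values in 2 genes (0.939%), beside 2.94% of all.

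These counts depended on WIN replicates 3 and 1. Replicate 3 was the highest of the 3 WIN libraries in 159 of the 213 genes (74.6%), beside 34.8% of all genes tested, and WIN replicate 1 was the lowest in 156 (73.2%), beside 30.0% of all. In 77 genes (36.2%) WIN replicate 3 lay above all 3 WIN+cocaine values, beside 18.7% of all genes tested. It stood above the mean of WIN replicates 1 and 2 in 178 genes (83.6%), beside 43.8% of all. The median log2 difference was 0.37, beside -0.04 for all. WIN replicates 1 and 2 both lay below all 3 WIN+cocaine values in 93 genes (43.7%), beside 17.2% of all genes tested.

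Without WIN replicate 3, the median difference of WIN+cocaine from WIN was 0.26 beside -0.01 for all genes tested, with 173 genes (81.2%) higher and 40 lower in value, beside 47.2% higher among all. At an unadjusted p under 0.05, limma then gave 63 of the 213 genes (29.6%) as higher, beside 8.20% of all genes tested, and 0 passed the adjusted threshold. Without WIN replicate 1, little of the difference from all genes was left: the median was 0.04, beside 0.01 for all, with 119 genes (55.9%) higher and 94 lower, beside 53.8% higher among all. At that p 5 genes (2.35%) were then higher, beside 1.46% of all. The WIN+cocaine values then lay above both remaining WIN values in 12 genes (5.63%), beside 7.44% of all, and below both in 24 (11.3%), beside 5.996% of all, so that separation was more frequent below than above. Without WIN+cocaine replicate 1 the median was 0.09, with 146 genes (68.5%) higher and 67 lower, beside 51.6% higher among all. The median thus kept its sign without any 1 of the WIN and WIN+cocaine libraries, while its size depended on which WIN library was left out. The control and cocaine libraries do not enter it except through the filter.

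**Figure D2:**
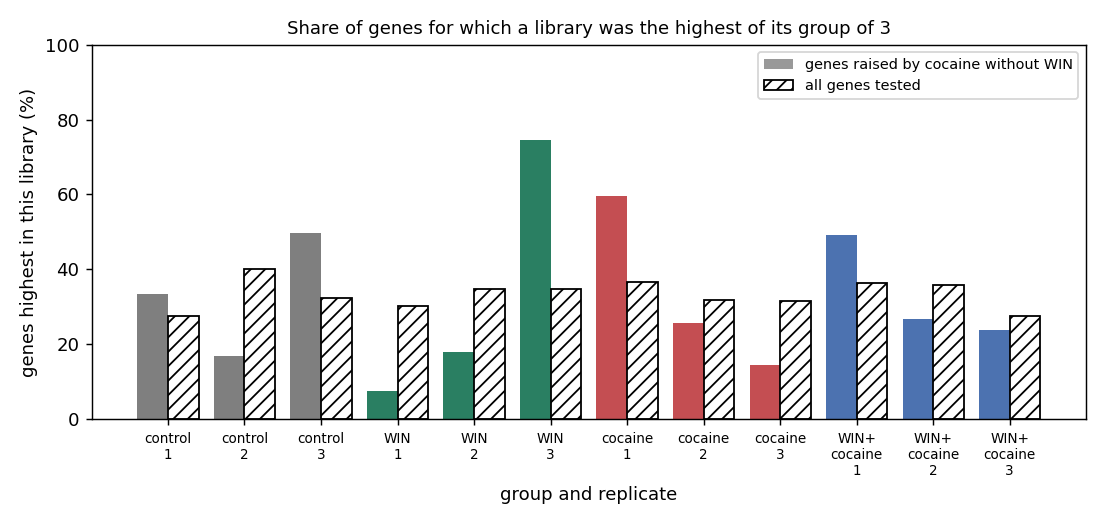
Share of genes for which a library was the highest of the 3 libraries of its group, in percent, by group and replicate; filled bars, the 213 genes; hatched bars, all 15326 genes tested. WIN replicate 3 was highest for 74.6% of the 213 genes against 34.8% of all genes, and WIN+cocaine replicate 1 for 49.3% against 36.5%.

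Spread within the groups was also compared. The median coefficient of variation over the 213 genes was 17.2% in WIN+cocaine and 26.0% in WIN, beside 9.53% and 11.8% for all genes tested. It was 13.8% in control and 22.2% in cocaine, where the rule bears on it, beside 8.01% and 10.4% for all genes tested. The highest WIN value was at least 2 times the lowest in 53 genes (24.9%), beside 5.36% of all genes tested; in WIN+cocaine this held for 25 genes (11.7%), beside 6.26%. Between WIN replicates 1 and 2 alone the median coefficient was 15.8%, beside 6.04% for all. It was 21.7% between WIN replicates 2 and 3, beside 11.7%, and 30.4% between WIN replicates 1 and 3, beside 11.6%. A coefficient from 2 libraries is less certain and tends to be lower than one from 3. These values are therefore not set against those of 3 libraries. Within WIN+cocaine, replicate 1 was the highest in 105 genes (49.3%), beside 36.5% of all. It reached at least the lowest cocaine value in 81 genes, against 41 for replicate 2 and 44 for replicate 3. WIN replicate 3 reached that level in 81 genes, WIN replicate 2 in 36 and WIN replicate 1 in 14. These counts reuse the cocaine libraries, which chose the genes. The share of all genes at that level was not analysed here, so nothing is read from them.

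The genes led by cocaine replicate 1 were set beside the others. In the 48 genes where that library was at least 1.5 times the second highest cocaine value, the median log2 difference of WIN+cocaine from WIN was -0.01. Of these 48, 22 (45.8%) were higher, beside 51.3% of all genes tested. In the 145 genes with no such lead the median was 0.17, and 124 (85.5%) were higher. The distance of WIN+cocaine from cocaine was -0.54 in the former and -0.37 in the latter. Without WIN replicate 3, the values of WIN+cocaine lay above those of WIN in 7 of the 48 genes (14.6%) and in 82 of the 145 (56.6%). The share of all genes tested was then 17.2%, so that of the 48 genes was no higher than the background. The medians were 0.05 in the 48 genes and 0.33 in the 145, beside -0.01 for all. With all 3 WIN libraries, the 12 genes led by cocaine replicate 2 had a median of -0.0025, with 6 (50%) higher. The 8 led by cocaine replicate 3 had 0.37, with 7 (87.5%) higher. The split was made after the values were seen and was not tested. A related view comes from applying the rule without cocaine replicate 1: the 171 genes so chosen had a median difference of WIN+cocaine from WIN of 0.20.

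By level, the 71 genes with the lowest mean FPKM (1.05 to 3.37) had a median log2 difference of WIN+cocaine from WIN of 0.08, the middle 71 had 0.15 and the 71 with the highest (12.3 to 2034.8) had 0.23. The pseudocount of 1 lowers the log2 difference of genes at low FPKM, and 50, 55 and 54 of the 71 were higher in value in these classes. The medians of the classes were 0.18, 0.26 and 0.42 without WIN replicate 3. In 26 genes the highest control value was at least 2 times the lowest or the lowest was 0, so that the controls themselves were spread. These 26 had a larger median ratio of cocaine to control, 2.35 against 1.75 in the other 187, and a median difference of WIN+cocaine from WIN of 0.22 against 0.14; without WIN replicate 3 the latter were 0.28 and 0.26.

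The size of the difference with cocaine was also set side by side without and with WIN. Between cocaine minus control and WIN+cocaine minus WIN, Pearson's r was 0.116 and Spearman's rho 0.193 across the 213 genes, which are not independent replicates. The points share their libraries, and the rule narrows the range of the first difference. Over all 15326 genes tested r was 0.227 and rho 0.338. Without WIN replicate 3 these were 0.0914 and 0.209 over the 213 genes, and 0.395 and 0.513 over all. Over all genes, the deviation of WIN replicate 3 from WIN replicates 1 and 2 had an r of 0.479 and a rho of 0.588 with the difference of cocaine from control; over the 213 genes these were -0.0082 and 0.165.

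**Figure D3:**
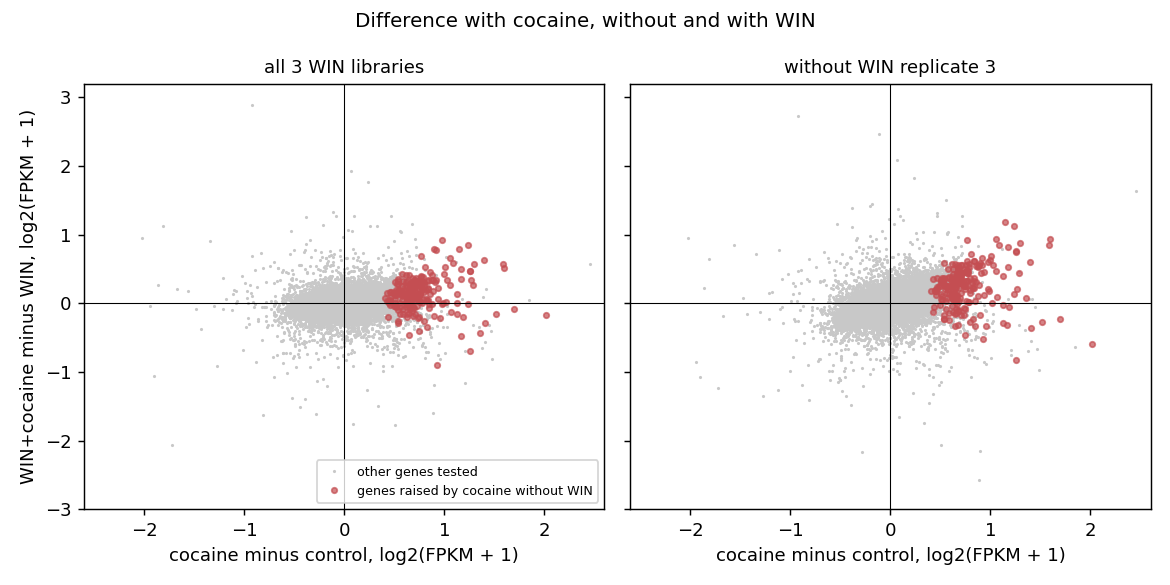
Each point is a gene, with the log2(FPKM + 1) difference of cocaine from control on the horizontal axis and that of WIN+cocaine from WIN on the vertical axis, with all 3 WIN libraries (left) and without WIN replicate 3 (right); red, the 213 genes, which were chosen on the horizontal axis; grey, the other genes tested. The red points center on a vertical value of 0.15 on the left and 0.26 on the right, and on 0.04 without WIN replicate 1 (not drawn). Their horizontal median of 0.70 comes from the libraries that chose them.

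Single genes are shown by 4 IDs, those of smallest p between WIN+cocaine and WIN, 2 higher and 2 lower. They are the extremes of 213, so that the separation of their groups follows largely from this choice. ENSRNOG00000047447 had FPKM values of 28.0, 22.0 and 22.1 in WIN+cocaine and of 12.5, 11.4 and 22.6 in WIN. WIN replicate 3 lay within the WIN+cocaine values and the other 2 WIN libraries far below them. In control it had 15.4, 12.7 and 16.9 and in cocaine 31.5, 31.8 and 32.7, so that WIN+cocaine stood above all controls and below all cocaine values. The mean was 24.0 ± 3.47 in WIN+cocaine and 15.5 ± 6.17 in WIN (SD, n = 3), and the log2 difference was 0.65 (SE 0.20), with an unadjusted limma p of 0.00720 and an adjusted p of 0.975. Between 94 and 303 reads lay behind each value. The log2 difference was 0.94 without WIN replicate 3.

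ENSRNOG00000012141 was lower in level and narrower in spread. Its FPKM was 4.29, 4.05 and 3.57 in WIN+cocaine and 2.79, 2.78 and 3.46 in WIN, with no overlap, and again WIN replicate 3 was nearest to WIN+cocaine. Control had 2.51, 2.51 and 2.76 and cocaine 4.81, 4.23 and 4.44. WIN+cocaine replicate 1 thus reached the cocaine range, while its replicates 2 and 3 lay below it. The log2 difference of WIN+cocaine from WIN was 0.31 (SE 0.10), with an unadjusted limma p of 0.00865 and an adjusted p of 0.975, from 55 to 122 reads per value. It was 0.39 without WIN replicate 3.

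In the other direction, ENSRNOG00000048528 was high in WIN and in cocaine and lower when both were given. Its FPKM was 25.4, 27.9 and 19.8 in WIN, 30.1, 31.0 and 28.0 in cocaine, and 11.03, 17.4 and 15.9 in WIN+cocaine. The 3 WIN+cocaine values lay below all WIN and all cocaine values. Control was spread, at 20.5, 8.29 and 9.68, with replicate 1 above the lowest WIN library. The mean was 14.8 ± 3.34 in WIN+cocaine and 24.4 ± 4.12 in WIN (SD, n = 3), and the log2 difference was -0.69 (SE 0.27), with an unadjusted limma p of 0.0230 and an adjusted p of 0.975. From 291 to 1252 reads lay behind each value. Without WIN replicate 3, the lowest WIN library here, the difference was -0.83.

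ENSRNOG00000049752 also had a lower mean in WIN+cocaine than in WIN or cocaine, at a lower level. Its FPKM was 6.20, 5.42 and 7.82 in WIN, 7.41, 4.82 and 5.53 in cocaine, 3.26, 4.99 and 5.21 in WIN+cocaine, and 4.79, 1.998 and 3.78 in control. WIN+cocaine lay below all WIN values but overlapped the cocaine and control values. Its log2 difference from WIN was -0.45 (SE 0.24), with an unadjusted limma p of 0.0812 and an adjusted p of 0.975, from 17 to 79 reads per value. It was -0.33 without WIN replicate 3.

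**Figure D4:**
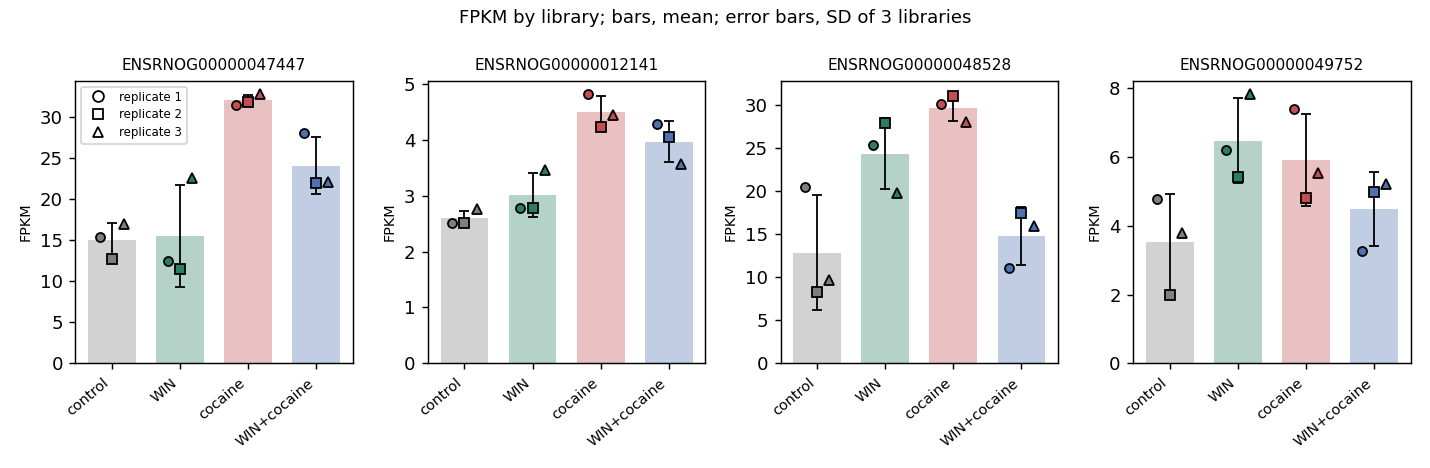
FPKM of the 4 IDs in each library by group; bars, group means; error bars, SD of 3 libraries; circles, squares and triangles, replicates 1, 2 and 3. In the first 2 panels the WIN+cocaine values lie between the WIN and cocaine means, with WIN replicate 3 the highest WIN library at 22.6 and 3.46; in the third, WIN+cocaine (11.03 to 17.4) lies below WIN (19.8 to 27.9).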

How the data were processed

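RNA was sequenced in 12 prefrontal cortex libraries, made with a stranded kit from 1 µg of RNA, per the labels' protocols. The authors deposited FPKM values per gene and library. HISAT2, HTSeq and DESeq are listed per the submitters' processing notes, without versions. Build, annotation and strand setting: not given in the sources used here. Reads of close paralogs or overlapping genes may therefore be shared. Sample titles gave the groups and the replicate numbers.

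Within each gene the values were whole multiples of 1 step after 1 scale factor per library, which gave back whole reads, within 0.02 reads, for all 24197 genes with a value. Implied lengths lay within 0.03 bp of a whole number for 99.98% of 11612 genes (over 200 reads in some library, length under 20000 bp). Counting error limits the low genes.

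Tests used limma 3.58.1 (R 4.3.3), fitted to log2(FPKM + 1), a scale that understates the change of low genes, with 4 group means, a trended prior variance, Benjamini-Hochberg adjustment over the 15326 genes that reached an FPKM of 1 in 3 libraries or more, and calls at 0.05. It was tested on simulated data. Alternatives changed the pseudocount, filter, scaling, weights, block, libraries and rule. IDs named are the 2 members with the smallest p in each direction between WIN+cocaine and WIN. The members, lists and tests were chosen with earlier results of these data known. The gene lists and markers kept by symbol and the ATAC regions were not used here. The reason was that 0 of the table's IDs matched the reference (GRCr8, 47357 genes, 0 with an Ensembl ID). The nucleus accumbens libraries were also not used. Correlations and splits of the members are descriptions.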

Additional observations from a re-analysis of the deposited data

Results flagged for a closer look

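For 2 of the 4 named IDs every WIN+cocaine library lay below every WIN library, while every cocaine library lay above every control library, as the rule required. ENSRNOG00000048528 had a log2 difference of WIN+cocaine from WIN of -0.69 and ENSRNOG00000049752 one of -0.45. The difference between the 2 directions was not tested, because the choice of the genes fixed one of them. These were the only 2 of the 213 genes whose WIN+cocaine values lay below all WIN values, and 2.94% of all genes tested did so.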

How the results depend on the processing

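Limma called 0 of the 213 genes between WIN+cocaine and WIN in each of the 25 alternatives, and each of the 4 named IDs had 1 direction in its 24 alternatives; the adjusted limma p lay between 0.113 and 1.00. For ENSRNOG00000049752 the unadjusted p ran from 0.0331 to 0.290. The median difference of 0.15 was 0.28 with voom and quality weights and lay between 0.043 (WIN replicate 1 left out) and 0.26 (WIN replicate 3 left out) over the left-out replicates; with the rule applied without cocaine replicate 3 it was 0.077 and without control replicate 1 it was 0.083.

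Genes higher at an unadjusted p under 0.05 numbered 12, beside 2.56% of all genes tested, but 54 under library weights (beside 8.04% of all), 54 under voom plus quality weights (beside 7.95%), 19 with the replicate block (beside 2.45%), 15 of 171 and 16 of 430 genes tested with the rule applied without cocaine replicate 1 or 3, and 5 (WIN replicate 1 left out, beside 1.46%) to 63 (WIN replicate 3 left out, beside 8.20%) over the left-out replicates. The share of all genes rose too where the count rose most. WIN replicate 3 had the lowest estimated weight, 0.296. Otherwise the cause was not tested. Genes lower numbered 1, beside 1.20% of all, but 2 with only the compared libraries, beside 1.34%. They were 1 of 357, 62 and 140 at 1.5-fold, 2-fold and FPKM of 5. Without cocaine replicate 2 or control replicate 2 in the rule they were 3 of 283 (1.06%) and 4 of 211 (1.90%), beside 1.20%. Over the left-out replicates they were 0 to 4, beside 0.833% to 6.59% of all. Genes with WIN+cocaine above all WIN values numbered 12 (5.63%), beside 4.52% of all. They were 1 of 62 (1.61%) at 2-fold and 15 of 171 (8.77%) without cocaine replicate 1 in the rule, beside the same share of all. Over the left-out replicates they were 12 to 93, beside 7.44% to 17.2% of all, where fewer libraries make separation easier. Those below all WIN values numbered 2 (0.939%), beside 2.94% of all, but 1 after quantile normalization, beside 3.47%. They were 1 of 62 at 2-fold and 2 of 140 at an FPKM of 5. With the rule applied without cocaine replicate 1, 2 or 3 they were 1 of 171 (0.585%), 5 of 283 (1.77%) and 15 of 430 (3.49%). Without control replicate 1 in the rule they were 12 of 323 (3.72%). All these other sets stand beside the same 2.94%. Over the left-out replicates they were 2 to 24, beside 4.53% to 18.9% of all. The 24 (11.3%) came without WIN replicate 1, beside 5.996%. Then 12 (5.63%) lay above, beside 7.44%, so the balance turned. The rule without single libraries, the positions, ratios and spread without single WIN libraries, the voom fits and the counts below all WIN values were added after the data were examined.

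The replicate numbers gave little sign of pairing: deviations of WIN and WIN+cocaine libraries with the same number correlated at -0.0821, 0.196 and 0.0691. Of the 3 WIN libraries, 2 did not correlate best with their own number. Depth limits the 67 genes with fewer than 100 reads on average.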
